A study of Mus musculus with 20 samples.

Results

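Voltage-gated potassium channel genes were examined in the dorsal root ganglia (DRG) of late mouse embryos, which hold the cell bodies of the sensory neurons along with satellite glia. The 9 genes described were Kcna1, Kcna2, Kcna4, Kcnb2, Kcnc1, Kcnc4, Kcnd3, Kcns1 and Kcns3, out of 37620 listed genes. They were listed by name, without a threshold on any value, from the Kcna, Kcnb, Kcnc, Kcnd and Kcns subfamilies, which hold 20 genes in all, and the other 11 are given as context. The genes encode Kv1.1, Kv1.2, Kv1.4, Kv2.2, Kv3.1, Kv3.4, Kv4.3, Kv9.1 and Kv9.3, in that order. The study asked which transcripts mark the sacral ganglia, where sensory neurons of the pelvic organs lie among somatic neurons, compared with the adjacent lumbar ganglia.

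Whole ganglia came from 10 C57Bl/6 embryos at E18.5, 5 male and 5 female, with no transgene or treatment in any group. Each embryo gave a lumbar library (L4-5) and a library from L6-S1, called sacral, so that 20 libraries fell into 4 groups of 5, one for each level and sex. Male donors carried the labels M1, M3, M5, M7 and M8, and female donors F3, F7, F8, F9 and F10. Whole ganglia mix neurons with glia, fibroblasts and vessels, and the sacral ganglia also hold somatic neurons, so a level belongs to the mixture. Values are RPKM, reads scaled to gene length and library size, and differences are on the log2 scale.

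Depth ranged from 19672958 to 39815802 reads per library. The sensory neuron transcription factor Pou4f1 stood at a mean of 23.9 RPKM in lumbar and 21.9 RPKM in sacral libraries, and the intermediate filament gene Prph at 235 and 175 RPKM. None of 6 spinal cord and 5 autonomic neuron markers reached a mean log2 RPKM of 0 in a group, and their summed levels stayed at or below 1.97 and 0.655 RPKM in every library. Mitochondrial ribosomal RNA (rRNA) took 17.7 to 60.9% of the reads. The libraries of donors M5 (60.9 and 49.3%) and F7 (48.7 and 44.6%) had the highest share of their sex at each level, and results that rest on them are also given without them.

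Kv channels open when the membrane depolarizes and let potassium leave the cell, which ends action potentials and limits repetitive firing. Subunits assemble as tetramers within a subfamily. Kv1 channels open near threshold and Kv3 channels at strong depolarization, Kv2 channels carry slow delayed rectifier current, and Kv4 channels carry fast A-type current below threshold. Kv9 subunits are electrically silent on their own and change the gating of Kv2 channels when they join them. In sensory neurons Kv1.1 and Kv1.2 line the axon beside the nodes of Ranvier of myelinated fibres, while Kv1.4, Kv3.4 and Kv4.3 are best known from small nociceptors.

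The coding stretch for the pore is shown because it is what the 9 genes share. Each line gives 45 bases of the coding strand, and capitals mark the 15 bases that encode the potassium selectivity filter.
Kcna1: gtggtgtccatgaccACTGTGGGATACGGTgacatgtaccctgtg
Kcna2: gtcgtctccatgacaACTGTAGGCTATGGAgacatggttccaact
Kcna4: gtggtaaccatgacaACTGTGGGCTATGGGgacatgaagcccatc
Kcnb2: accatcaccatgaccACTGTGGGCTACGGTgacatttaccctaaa
Kcnc1: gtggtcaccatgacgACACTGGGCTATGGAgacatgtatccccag
Kcnc4: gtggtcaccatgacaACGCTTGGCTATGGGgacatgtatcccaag
Kcnd3: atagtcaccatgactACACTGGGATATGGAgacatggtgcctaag
Kcns1: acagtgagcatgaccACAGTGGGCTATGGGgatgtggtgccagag
Kcns3: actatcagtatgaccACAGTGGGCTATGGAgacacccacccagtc
The stretches lay in mm9 at chr6:126592231-126592275 (minus strand), chr3:106908127-106908171 (plus), chr2:107136637-107136681 (plus), chr1:15700112-15700156 (plus), chr7:53683328-53683372 (plus), chr3:107250702-107250746 (minus), chr2:163990575-163990619 (minus) and chr12:11098366-11098410 (minus), each within 1 coding exon of the GENCODE release M1 transcript. That of Kcnd3 began at base 105262817 of chromosome 3 and continued across an intron to base 105461550. Over the 36 pairs of genes, 26 to 40 of the 45 bases and 9 to 14 of the 15 capitals were identical. For 7 of the 9 genes no window of 50 bases of their protein-coding transcripts occurred in a protein-coding transcript of another gene. Non-coding transcripts were not searched. Kcnc1 shared 51 windows (0.567%), of which 20 occurred in another gene of the subfamilies, and Kcnb2 shared 6 (0.0896%), none of them with such a gene.

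Comparing sacral with lumbar DRG of the same embryos, 2 of the 9 genes were lower in sacral ganglia and none was higher. Kcns1 fell by 1.52 on the log2 scale and Kcna1 by 0.68. Across all 14529 genes tested, 6.73% passed the threshold, 4.03% lower and 2.7% higher, so that 40.1% of the calls were higher. After quantile normalization 51.9% of the calls were higher. At an unadjusted p under 0.05 the count was 4 of 9, against 24.1% of all genes. The other 7 genes had adjusted p-values between 0.0788 and 0.987. Of the 9 differences 8 were below 0, as were 58% of those of all genes tested, with a median of -0.34 against -0.05 over all genes tested. Since whole ganglia were used, fewer cells of a type and less RNA per cell cannot be told apart in any of these differences.

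**Figure D1:**
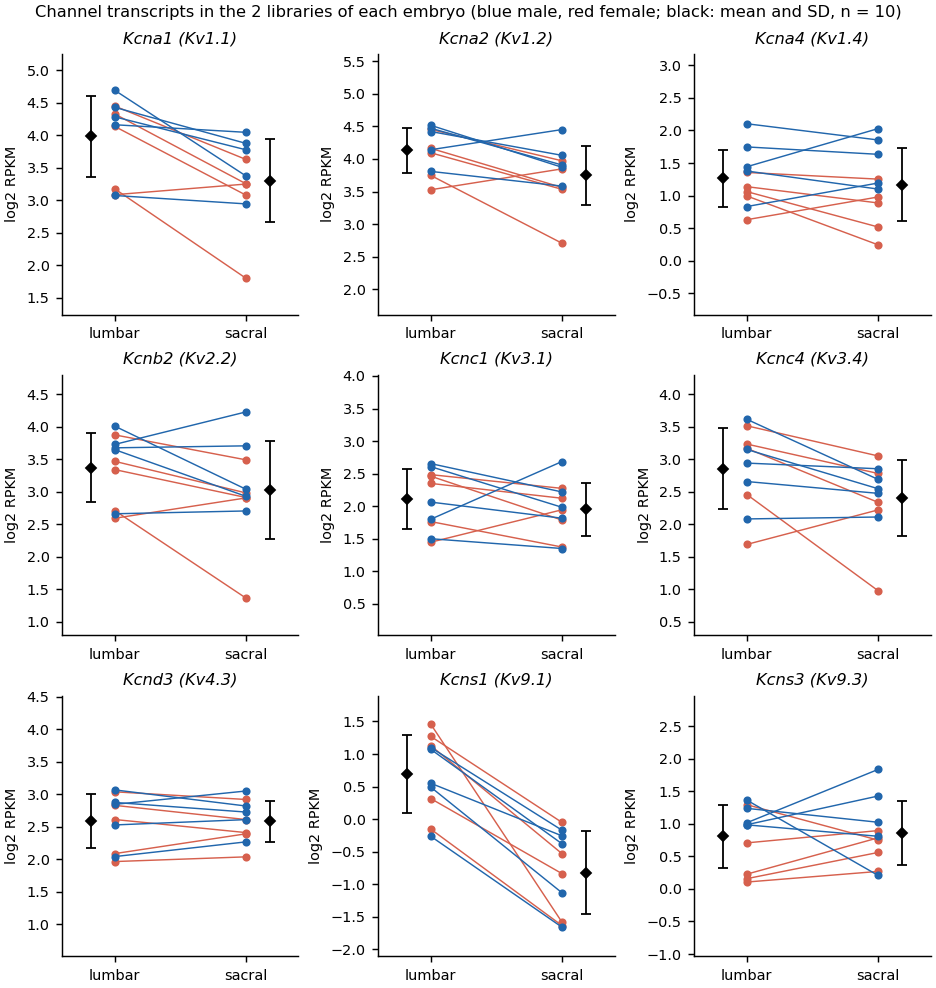
Log2 RPKM (vertical axis) of the 9 channel genes in the lumbar and the sacral library of each of 10 embryos, joined by a line (blue male, red female), with the mean and SD of each level in black. Each panel spans 4 log2 units, and only for Kcns1 do all 10 lines fall.

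Kcns1, the silent subunit Kv9.1, lies at chr2:163989355-163996849 (mm9, minus strand). In lumbar libraries it stood at 2.10, 2.14, 0.833, 1.41 and 1.46 RPKM in males M1, M3, M5, M7 and M8, and at 2.19, 1.24, 0.899, 2.75 and 2.41 RPKM in females F3, F7, F8, F9 and F10. The sacral values in the same order were 0.769, 0.888, 0.316, 0.456 and 0.837 RPKM in males and 0.692, 0.560, 0.322, 0.333 and 0.965 RPKM in females. Every embryo had the lower value in its sacral library, as had 1.95% of all genes tested. The ranges of the levels overlapped, since the low lumbar values of M5 and F8 lay below the highest sacral ones, and 7 of 10 sacral libraries lay below all lumbar libraries. The mean fell from 1.74 ± 0.66 RPKM (SD, n = 10) to 0.614 ± 0.249 RPKM (log2 difference -1.52 ± 0.23 SE, 95% interval -1.99 to -1.05, adjusted p = 0.000539), a lumbar level 2.87 times the sacral one. The difference within an embryo ran from -3.04 in F9 to -0.81 in M8. The gene rests on few reads, 37 to 260 per lumbar and 17 to 79 per sacral library. It passed the filter on low values, a mean log2 RPKM of at least 0 in a group, through its lumbar groups alone, where the means were 0.59 (male) and 0.80 (female), while the sacral groups stood at -0.72 and -0.93. With no filter the difference had an adjusted p of 0.00179. Leaving out 1 donor at a time kept it between -1.59 and -1.36, past the threshold in 10 of 10 fits, and without both M5 and F7 it was -1.58 (adjusted p = 0.00594).

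Kcns3, the other silent subunit of the pair (Kv9.3), lies at chr12:11097008-11157648 (minus strand). Its lumbar values had a lowest of 1.08, a median of 1.98 and a highest of 2.57 RPKM, and its sacral values 1.15, 1.74 and 3.57 RPKM. The levels overlapped throughout, and 6 of 10 embryos were higher in sacral ganglia. The difference was 0.05 ± 0.16 (SE), with a 95% interval from -0.29 to 0.39 and an adjusted p of 0.878. The difference of Kcns1 was below that of Kcns3 in 10 of 10 embryos, by 1.57 ± 0.91 log2 units (SD, n = 10, exact two-sided sign-flip permutation test, adjusted p = 0.00586 over 9 gene pairs compared). This is the smallest p that 10 embryos can give, 0.00195 before adjustment. On a scale with 1 RPKM added to each value the contrast was -0.77 (adjusted p = 0.0117).

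RefSeq promoter windows (GRCm38.p6) were found for 7 of the 9 genes, and those of the 2 Kv9 genes are shown because these genes differed in their level difference. Each line holds the 250 bases before the transcription start, 5′ to 3′ on the gene's strand, and capitals mark matches to a GC box (GGGCGG) or an E-box (CANNTG) on either strand. Kcns1 was read from chr2:164171114-164171363 (minus strand), and Kcns3 has 2 starts, at chr12:11150374-11150623 and chr12:11150843-11151092 (minus strand).
Kcns1: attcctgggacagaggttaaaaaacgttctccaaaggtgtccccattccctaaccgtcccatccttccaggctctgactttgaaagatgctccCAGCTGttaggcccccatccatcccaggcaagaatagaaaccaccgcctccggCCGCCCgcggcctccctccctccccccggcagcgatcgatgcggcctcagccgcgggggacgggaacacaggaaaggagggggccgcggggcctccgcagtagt
Kcns3, first window: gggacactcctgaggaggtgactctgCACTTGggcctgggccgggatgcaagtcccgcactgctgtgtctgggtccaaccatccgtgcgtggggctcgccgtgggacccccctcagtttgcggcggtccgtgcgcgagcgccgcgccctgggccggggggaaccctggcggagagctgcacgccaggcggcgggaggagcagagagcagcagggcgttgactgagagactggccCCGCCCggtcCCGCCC
Kcns3, second window: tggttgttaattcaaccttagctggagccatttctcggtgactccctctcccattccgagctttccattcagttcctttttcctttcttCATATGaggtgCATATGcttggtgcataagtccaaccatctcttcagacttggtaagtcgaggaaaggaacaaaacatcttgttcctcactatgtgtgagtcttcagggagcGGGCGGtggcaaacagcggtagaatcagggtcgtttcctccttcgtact
The Kcns1 window held 1 GC box and 1 E-box, the first Kcns3 window 2 and 1, and the second 1 and 2. Over all 32851 windows of this length 32.7% held a GC box and 66.2% an E-box. A TATA box (TATAAA) was in none of these windows and in 12.4% of all. The bases were 63.2% G or C for Kcns1 and 72.8 and 47.2% for Kcns3, against a median of 52.4% over all windows. The matches describe letters only, and no binding was measured.

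Kcna1 and Kcna2 encode the axonal Kv1 subunits and Kcna4 the inactivating subunit Kv1.4. Kcna1 lies at chr6:126586481-126595819 (mm9, minus strand). Its lumbar values were 19.4, 21.5, 8.42, 17.9 and 25.8 RPKM in males M1, M3, M5, M7 and M8, and 21.8, 9.03, 8.49, 20.04 and 17.6 RPKM in females F3, F7, F8, F9 and F10. The sacral values in the same order were 13.7, 14.7, 7.70, 16.5 and 10.4 RPKM in males and 12.3, 3.48, 9.51, 9.53 and 8.44 RPKM in females. The lumbar values fell into 7 libraries above every sacral one and 3 libraries, of M5, F7 and F8, among the sacral values. Kcna1 was lower in the sacral library of 9 of 10 embryos, all but F8, and the mean fell from 17.0 ± 6.2 to 10.6 ± 3.8 RPKM (SD, n = 10). The log2 difference was -0.68 ± 0.19 (SE, 95% interval -1.08 to -0.28, adjusted p = 0.0391). This call was close to the threshold. It was lost without the donor block (adjusted p = 0.198), without the filter on low values (adjusted p = 0.101) and on leaving out any 1 of M1, M3, M8, F3, F7, F9 and F10 (adjusted p up to 0.103), while without both M5 and F7 it remained (-0.66, adjusted p = 0.0488).

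Kcna2 (chr3:106904485-106909797, plus strand) had a lumbar lowest of 11.5, median of 17.8 and highest of 22.9 RPKM, and sacral values of 6.52, 14.5 and 21.9 RPKM. It was lower in sacral ganglia of 8 of 10 embryos, with a difference of -0.39 ± 0.13 (SE, 95% interval -0.66 to -0.11) that did not pass the threshold (adjusted p = 0.0788). It passed with sample weights (adjusted p = 0.00509), at a filter of 4 RPKM (0.0455), with the mitochondrial rRNA share as a covariate (0.0378) and without M7 (0.0478) or F8 (0.0167). Kcna4 (chr2:107130796-107138659, plus strand) ran from 1.55 over a median of 2.38 to 4.298 RPKM in lumbar and from 1.18 over 2.22 to 4.08 RPKM in sacral libraries, 2 ranges that overlapped nearly in full. Its difference was -0.10 ± 0.14 (SE, 95% interval -0.38 to 0.19, adjusted p = 0.684). Within an embryo the difference of Kcna1 was more negative than that of Kcna4 in 10 of 10 embryos (-0.58 ± 0.27 SD, adjusted p = 0.00586) and than that of Kcna2 in 8 of 10 (-0.29 ± 0.24, adjusted p = 0.0117), both by the exact sign-flip permutation test. Kcna2 likewise lay below Kcna4 in 10 of 10 embryos (-0.29 ± 0.19, adjusted p = 0.00586, exact test). The level differences of the 3 Kv1 genes were therefore ordered Kcna1, Kcna2, Kcna4 from the most negative. Those of Kcna2 and Kcna4 did not themselves pass the threshold.

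**Figure D2:**
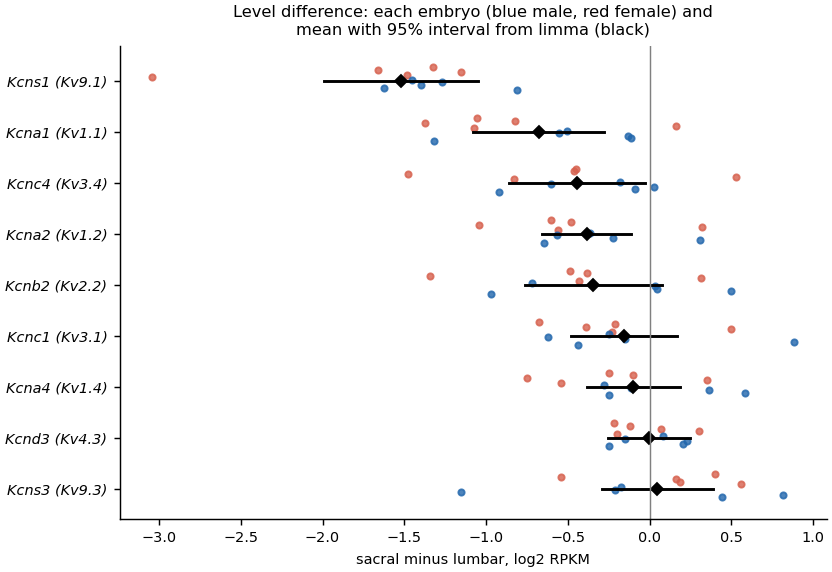
Sacral minus lumbar log2 RPKM (horizontal axis) of the 9 channel genes in each of 10 embryos (blue male, red female), with the mean and its 95% interval from limma in black. The interval of Kcns1 runs from -1.99 to -1.05, and those of Kcna1, Kcnc4 and Kcna2 also lie below 0, of which Kcna1 alone passed the threshold after adjustment.

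Kcnb2 encodes Kv2.2, a delayed rectifier subunit that Kv9 subunits can join. The annotation splits it into 2 identifiers on the same strand, 673 bases apart, at chr1:15302533-15701710 and chr1:15702384-15706448, whose log2 values followed each other with an r of 0.966 over 20 libraries. The first had lowest, median and highest values of 6.04, 11.8 and 16.1 RPKM in lumbar and 2.58, 7.76 and 18.7 RPKM in sacral libraries. Both extremes of the gene were sacral, F7 at the bottom and M7 at the top. The difference was -0.34 ± 0.20 (SE, 95% interval -0.76 to 0.07, adjusted p = 0.296), with 6 of 10 embryos lower, and for the second identifier -0.31 ± 0.20 (adjusted p = 0.344), with 7 of 10 lower. With sample weights in limma the first identifier passed the threshold (-0.42, adjusted p = 0.0478) and the second did not (-0.36, adjusted p = 0.0791). Within an embryo the difference of Kcns1 fell below that of Kcnb2 by 1.18 ± 0.91 (SD, n = 10, 8 of 10 embryos, exact sign-flip permutation test, adjusted p = 0.0117). With 1 RPKM added to each value this contrast was -0.44 and no longer passed (exact test, adjusted p = 0.0674). The same contrast of Kcns3 with Kcnb2 was 0.39 ± 0.84 (adjusted p = 0.196, exact test), and without M5 it was 0.57 and passed (adjusted p = 0.0483, exact test).

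Kcnc1 and Kcnc4 encode the high-threshold subunits Kv3.1, a fast delayed rectifier, and Kv3.4, which inactivates. Kcnc1 (chr7:53651867-53693745, plus strand) ran from 2.73 over a median of 4.64 to 6.29 RPKM in lumbar and from 2.55 over 3.90 to 6.43 RPKM in sacral libraries. It differed by -0.16 ± 0.16 (SE, 95% interval -0.48 to 0.17, adjusted p = 0.552), and 8 of 10 embryos were lower, with M7 the farthest in the other direction at 0.89. Kcnc4 (chr3:107241221-107261816, minus strand) had lowest, median and highest values of 3.23, 8.27 and 12.2 RPKM in lumbar and 1.97, 5.70 and 8.28 RPKM in sacral libraries. Of the lumbar libraries 5 of 10 lay above every sacral one. The difference of -0.45 ± 0.20 (SE, 95% interval -0.86 to -0.03) did not pass the threshold (adjusted p = 0.179). It passed on leaving out F8 (-0.58, adjusted p = 0.0447) and with sample weights in limma (-0.53, adjusted p = 0.0157). The 2 Kv3 genes could not be told apart in their level differences (0.29 ± 0.48 SD, 5 of 10 embryos in each direction, exact sign-flip permutation test, adjusted p = 0.131).

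Kcnd3, which encodes the A-type subunit Kv4.3, lies at chr3:105255248-105476920 (plus strand). Lowest, median and highest values were 3.91, 6.61 and 8.37 RPKM in lumbar and 4.11, 6.10 and 8.28 RPKM in sacral libraries. Both ranges covered nearly the same span, and 5 of 10 embryos were lower. The 95% interval of its difference, -0.25 to 0.24, was the narrowest of the 9 genes (mean -0.00 ± 0.12 SE, adjusted p = 0.987). Differences below -0.253 or above 0.2442 log2 units lay outside the interval of this fit. With the mean of large myelinated neuron markers as a covariate, chosen after seeing the data, the difference was 0.56 (limma, adjusted p = 0.0356).

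By level per length, the order of the 9 genes over all libraries was Kcna2, Kcna1, Kcnb2, Kcnc4, Kcnd3, Kcnc1, Kcna4, Kcns3 and Kcns1. Some neighbours in this order did not differ beyond their spread. In lumbar libraries Kcna2 exceeded Kcna1 by 0.16 ± 0.32 log2 units (SD, n = 10, 7 of 10 libraries), but in sacral libraries by 0.45 ± 0.24, in 10 of 10. Kcnc4 exceeded Kcnd3 in 9 of 10 lumbar libraries (0.26 ± 0.30) and in 2 of 10 sacral ones (-0.18 ± 0.33). Kcns3 exceeded Kcns1 in 6 of 10 lumbar libraries (0.11 ± 0.86) and in 10 of 10 sacral ones (1.68 ± 0.75). The remaining neighbours kept their order in 8 to 10 of 10 libraries at each level.

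The 9 genes made up 51.8 ± 2.7% (SD, n = 10) of the summed RPKM of the 20 subfamily genes in lumbar and 50.1 ± 2.8% in sacral libraries. The share of Kcna1 went from 12.1 ± 1.2% to 9.59 ± 1.34% and was lower in 9 of 10 embryos. That of Kcns1 went from 1.28 ± 0.32% to 0.612 ± 0.309%, lower in 10 of 10. The share of Kcna4 was higher in sacral libraries of 10 of 10 embryos, at 1.87 ± 0.36% and 2.23 ± 0.54%, and that of Kcnd3 in 8 of 10, at 4.62 ± 0.44% and 5.88 ± 1.17%. Shares sum to a whole, so a lower share of one gene raises the others. Kcna6, the Kv1.6 gene, had the highest share at both levels (23.9 ± 2.5 and 23.4 ± 3.5%).

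**Figure D3:**
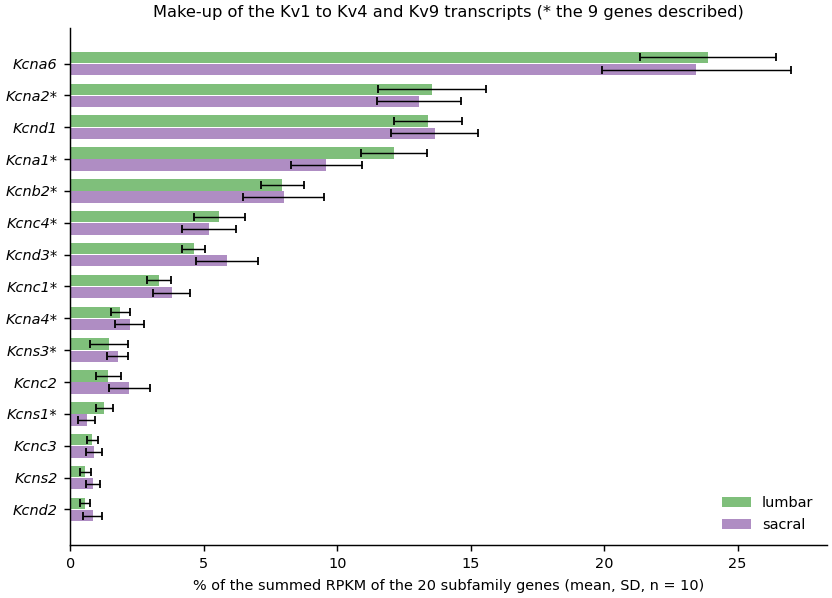
Share of the summed RPKM of the 20 subfamily genes (horizontal axis, percent, mean and SD over 10 libraries) for 15 of the 16 genes with the highest lumbar shares, in lumbar (green) and sacral (purple) libraries. Kcna1 goes from 12.1 to 9.59% and Kcns1 from 1.28 to 0.612%, while the other bars differ by less than their SD or rise.

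Of the 11 other genes of the same subfamilies 6 could be tested, and none passed the threshold in limma (median -0.24). Kcna6 stood at 33.3 RPKM in lumbar and 26.6 RPKM in sacral libraries on average (-0.37 ± 0.21, adjusted p = 0.276). Kcnd1, which encodes Kv4.1, stood at 18.51 and 14.9 RPKM (-0.31 ± 0.18, adjusted p = 0.292), and Kcnc2, which encodes Kv3.2, at 1.84 and 2.22 RPKM (0.27 ± 0.12, adjusted p = 0.185). Kcna3, Kcna5, Kcna7, Kcna10 and Kcnd2 were too low to test. Of 7 other silent subunit genes of Kv5, Kv6 and Kv8, 3 were tested and none passed (median -0.07). The nearest to it was Kcng1, a Kv6 gene, at 2.09 and 1.14 RPKM (-0.82 ± 0.26, adjusted p = 0.0629).

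Auxiliary subunits and the proteins that hold Kv1 channels in the axon were also compared. Of 15 auxiliary genes 11 were tested and 2 were lower in sacral ganglia (median -0.25). Both encode calcium-binding proteins that join Kv4 channels: Kcnip4 fell by 0.36 (SE 0.10, adjusted p = 0.0356) and Kcnip3 by 0.52 (SE 0.15, adjusted p = 0.0417), each lower in 9 of 10 embryos. The Kv1 beta subunit gene Kcnab2 differed by -0.30 ± 0.17 (adjusted p = 0.293). Of 10 genes for the clustering of axonal channels all were tested and 1 was lower (median -0.34). This was Cntnap2, whose product Caspr2 gathers Kv1 channels beside the node (-0.66 ± 0.18, adjusted p = 0.0302, lower in 9 of 10 embryos). Its partner Cntn2 differed by -0.29 ± 0.21 (adjusted p = 0.402).

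Several marker lists moved with spinal level as well, and their part in the differences of Kcns1 and Kcna1 was not tested. Of 7 tested markers of large myelinated neurons 4 were lower in sacral ganglia (median -0.86), including Pvalb (-1.33 ± 0.15, adjusted p = 1.26e-05), Etv1 and Nefm. Of the 7 differences 6 were below 0 and 1 was above, at 0.70, without passing the threshold. The summed level of the list ran from 283 to 748 RPKM in lumbar and from 147 to 351 RPKM in sacral libraries, lower in 10 of 10 embryos. Of 11 markers of Schwann cells and satellite glia 5 were lower (median -0.34), including Mbp (-0.58 ± 0.08, adjusted p = 0.000211) and S100b, with sums of 403 to 556 and 261 to 422 RPKM. Of 12 pan-neuronal genes 1 was lower, Snap25 (-0.60 ± 0.14, adjusted p = 0.0162), with sums of 790 to 1654 and 405 to 1444 RPKM. Among 11 nociceptor markers Tac1 was lower and Trpv1 higher, with a median of -0.17 and sums of 301 to 563 and 176 to 507 RPKM. Higher in sacral ganglia were 5 of 9 fibroblast and meningeal markers, with sums of 214 to 480 and 287 to 628 RPKM, 1 of 3 tested cartilage markers (6.82 to 17.96 and 8.84 to 29.3 RPKM) and 2 of 4 endothelial markers (22.6 to 47.4 and 32.3 to 58.4 RPKM). None of 6 skeletal muscle markers (20.9 to 428 and 20.7 to 214 RPKM) and 4 erythroid markers (49.4 to 191 and 53.2 to 173 RPKM) passed in limma.

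With the mean of the pan-neuronal genes as a covariate the differences were -1.37 for Kcns1 (adjusted p = 0.00497) and -0.37 for Kcna1 (adjusted p = 0.00625). With the mean of the large myelinated markers in its place, a setting chosen after seeing the data, Kcns1 was at -1.02 (adjusted p = 0.0867) and Kcna1 at 0.32 (adjusted p = 0.303). With the glial mean, also chosen later, Kcns1 was at -1.17 (adjusted p = 0.153) and Kcna1 at 0.06 (adjusted p = 0.908). All of these lists themselves differed between the levels. The summed RPKM of the large myelinated and of the glial list was lower in sacral libraries of 10 of 10 embryos. That of the pan-neuronal list was lower in 9 of 10 embryos.

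**Figure D4:**
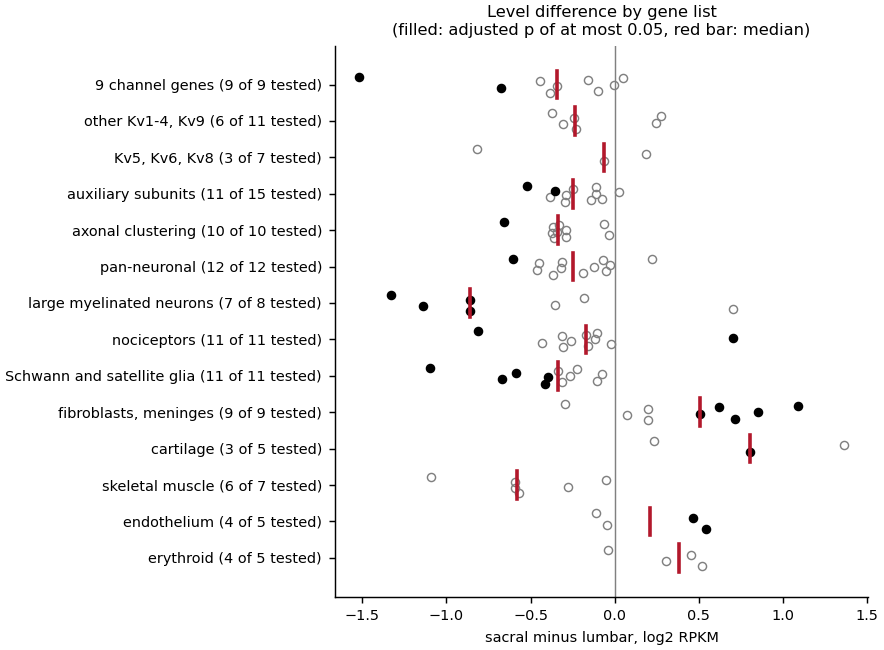
Sacral minus lumbar log2 RPKM (horizontal axis) of each tested gene of 14 lists (rows), filled where the adjusted p was at most 0.05, with the median of a list as a red bar. The 9 channel genes have a median of -0.34, the large myelinated markers of -0.86 and the fibroblast and meningeal markers of 0.51.

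Levels were also compared with the mitochondrial rRNA share of a library, which many genes followed. Over all 14529 genes the median r with the share was -0.28 in lumbar and -0.25 in sacral libraries, and 40.1 and 35.7% of genes had an r of -0.5 or lower. Of the 9 channel genes 8 and 7 did, with medians of -0.82 and -0.64. Within the lumbar libraries Kcna1 fell with the share (Pearson r = -0.944, permutation adjusted p = 0.0018, Spearman rho = -0.939, permutation adjusted p = 0.00288, n = 10 libraries), and r was -0.959 without M5 and F7, the libraries farthest from the median share. Within the sacral libraries r was -0.747 (permutation adjusted p = 0.0181), rho was -0.842 (permutation adjusted p = 0.0178), and r was -0.759 without M3 and F3. For Kcns1 r was -0.810 in lumbar (permutation adjusted p = 0.0181) and -0.547 in sacral libraries (permutation adjusted p = 0.126). Its lumbar r was -0.698 without M5 and F7, and its sacral r was -0.441 without M3 and F3. Its rho was -0.685 in lumbar (permutation adjusted p = 0.0473) and -0.491 in sacral libraries (permutation adjusted p = 0.163). Of the 18 relations of 9 genes at 2 levels, 8 lumbar and 5 sacral ones passed an adjusted p of 0.05 by r and as many by rho. These p-values were adjusted over the 18 relations only. The share of all genes that would pass this permutation test was not computed, so the counts are a description. Kcns3 in lumbar libraries was the weakest, at an r of -0.028. The share ran from 20.4 over a median of 29.0 to 60.9% in lumbar and from 17.7 over 35.7 to 49.3% in sacral libraries. These reads count in the library total, but the deposited values were not scaled by that total alone. The library size that the values imply was 1.64e+07 in lumbar M5 (24009423 reads) and 2.86e+07 in lumbar M1 (22936129 reads). The part of the mitochondrial rRNA reads in the relations was not tested. With the share as a covariate Kcns1 was at -1.50 (adjusted p = 0.000327) and Kcna1 at -0.65 (adjusted p = 0.00361), and Kcna2 passed the threshold (-0.37, adjusted p = 0.0378).

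**Figure D5:**
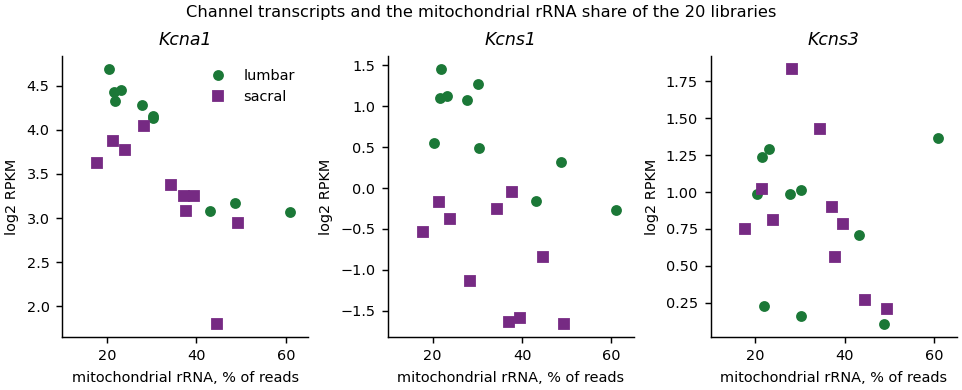
Log2 RPKM (vertical axes) of Kcna1, Kcns1 and Kcns3 against the mitochondrial rRNA share of reads (horizontal axes, percent) in 10 lumbar (green circles) and 10 sacral (purple squares) libraries. Kcna1 falls with the share in both levels, with an r of -0.944 and -0.747, and Kcns3 in lumbar libraries does not follow it (r = -0.028).

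The sexes were compared within each level. No channel gene passed the threshold in limma, in lumbar ganglia (0.33% of all genes did) or in sacral ganglia (1.01%). At an unadjusted p under 0.05 the count was 1 of 9 at each level, against 8.28% and 15.5% of all genes. In lumbar ganglia this was Kcns3, at 2.18 ± 0.27 RPKM in males and 1.49 ± 0.58 RPKM in females (SD, n = 5, log2 difference -0.62 ± 0.28 SE, adjusted p = 0.569). In sacral ganglia it was Kcna4, at 3.05 ± 0.84 RPKM in males and 1.76 ± 0.47 RPKM in females (-0.79 ± 0.24, adjusted p = 0.119). This difference of Kcna4 passed under 5 of 22 alternatives, with sample weights, without M5 and with the mitochondrial rRNA, pan-neuronal or large myelinated covariate (adjusted p from 0.00989 to 0.0467). With the large myelinated covariate Kcna1 (-0.76, adjusted p = 0.0211), Kcna2 (-0.55, adjusted p = 0.0211) and the second Kcnb2 identifier (-0.93, adjusted p = 0.0325) also passed in sacral ganglia. The female and male ranges of all 9 genes overlapped at both levels. Female values were the lower on average for 8 of 9 genes in lumbar and 9 of 9 in sacral ganglia, against 47.1% and 53.9% of all genes tested. All 9 values come from the same libraries, so these counts are a description. Library numbers in the sample titles form separate runs for males and females, with an irregular entry for lumbar M3. What the numbers stand for is not stated, and sex cannot be told apart from them.

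Within females alone Kcns1 was lower in sacral ganglia (-1.73 ± 0.32, adjusted p = 0.0121, where 0.681% of all genes were called lower), and within males it did not pass (-1.31 ± 0.32, adjusted p = 0.0682, with 0.289% called lower). The female call was lost under 7 of 22 alternatives, among them no donor block (adjusted p = 0.146), leaving out F3 (0.0596) or F9 (0.0766), and leaving out both M5 and F7 (0.0631), and the highest adjusted p was 0.450 with the glial covariate. In males the difference passed under 3 of 22, with sample weights (0.0346), with the mitochondrial rRNA covariate (0.0482) and without F8 (0.0352). Kcns1 was lower in 5 of 5 embryos of each sex. The test of the difference between these effects gave -0.42 ± 0.45 (adjusted p = 0.995). Over all genes this interaction reached the threshold for 0%, and 3.23% had an unadjusted p under 0.05, with none of the 9 channel genes among them. With voom on the recovered reads the count past the threshold was also 0.

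Among 14040 genes ranked by how closely their log2 RPKM followed that of a channel gene over the 20 libraries, Adam23 (Pearson r = 0.979) and Ntm (0.978) were among the 3 nearest Kcna1. Those nearest Kcns1 were Gm2115 (0.869), Nacc2 (0.850) and Camkv (0.845). The libraries share donors, depth and mitochondrial rRNA share, so these r values describe likeness only.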

How the data were processed

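The 20 libraries were made by the authors with RNeasy Plus Micro, Ovation RNA-Seq v2 and Nextera XT kits and sequenced on a HiSeq. The authors aligned reads to mm9 with Subread, counted unique reads per Ensembl gene with featureCounts, applied TMM (edgeR 3.12.1) and voom (limma 3.26.9), and deposited log2 RPKM. Use of strand is not stated, so the opposite-strand genes SNORA17 in Kcnb2 (up to 7 reads) and 1700095B22Rik in Kcnd3 (up to 14 reads) cannot be separated.

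With GENCODE release M1 lengths, 98.27% of values gave whole reads (tolerance 0.05). Lengths of 725 genes, Kcnb2 among them, were recovered from the steps. Blanks were set to 0.5 reads. No count model was used, since the deposited unit is log2. Read numbers carry counting error only, as amplified libraries have no molecular identifiers.

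limma 3.58.1 (R 4.3.3, statmod 1.5.0) fitted 4 group means with donor as a block through duplicateCorrelation (0.342) and a trended eBayes, on 14529 genes with a mean log2 RPKM of at least 0 (1 RPKM) in a group, which all 9 channel genes passed. Two-sided p-values were adjusted (Benjamini-Hochberg) over these genes, and calls were made at 0.05. Samples pair because both libraries came from 1 embryo. The deviations of an embryo's libraries from their group means correlated from -0.166 (M8) to 0.677 (M5). Embryos are the replicates, and whether they shared litters is not given in the sources used here.

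Gene pairs were compared within a subfamily, and Kv9 with Kv2 genes (9 pairs), by exact sign-flip permutation tests over 10 embryos. These pair contrasts were not among the planned tests. Permutation p-values of correlations used 100000 resamples and were adjusted over the 18 relations of the channel genes, not over all genes. Alternatives varied the block, weights, filter, pseudocount, normalization, covariates and donors. All 9 genes are named, with up to 3 genes past the threshold from each other list, the 3 most alike genes for each called member, and other family genes as context, some of which were chosen after their values were seen. The members and lists were chosen with earlier results of these data known. Values of a few genes that these rules name are not reported here.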

Additional observations from a re-analysis of the deposited data

Results flagged for a closer look

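In the Kcnb2 gene 3 values stood apart from the other libraries of their group of 5 by Dixon's criterion (critical value 0.71), among 40 groups of channel gene values examined, where chance flags about 1 in 20 groups. In lumbar males the library of M5 had a log2 RPKM of 2.66, with the others from 3.65 to 4.01, and at the second Kcnb2 identifier 2.93, with the others from 3.77 to 4.09. In sacral females the library of F7 had a log2 RPKM of 1.37, with the others from 2.91 to 3.49. These libraries had mitochondrial rRNA shares of 60.9% (M5) and 44.6% (F7), the highest of their groups. Whether the share bears on these values was not tested.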

How the results depend on the processing

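Of the 9 channel genes, 2 were lower in sacral ganglia, and the count was 1 with no replicate block and with no filter on low values, 5 with sample weights, 0 with the large myelinated or the glial mean as a covariate, and 1 to 4 on leaving out 1 donor. With the large myelinated mean 1 gene was higher, Kcnd3, at 0.56 (adjusted p = 0.0356). Kcna1 turned to 0.32 with that covariate and to 0.064 with the glial mean (adjusted p = 0.908). The cause was not tested.

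The call of Kcns1 held under 21 of 23 alternatives, all but those 2 covariates. At a filter of 4 RPKM it was not tested. With no replicate block it was at an adjusted p of 0.0114, and with donor as a fixed effect at 0.00163. No replicate block changed the call of Kcna1 (adjusted p = 0.198) and of no other channel gene. At a pseudocount of 1 RPKM the difference of Kcns1 shrank to -0.74.

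Over all genes the level count was 978. It was 154 with no replicate block, 2998 with sample weights, 511 with no filter, 564 with the pan-neuronal, 113 with the glial covariate, 265 without M5 and F7 and 404 to 1608 on leaving out 1 donor, the lowest without F10 and the highest without F8. The lumbar sex count of 48 became 197 with sample weights, 90 after quantile normalization, 229 with the mitochondrial rRNA, 475 with the pan-neuronal and 150 with the large myelinated covariate, 74 without M5 and F7, and 14 to 81 on leaving out 1 donor. The sacral sex count of 147 became 751, 345, 705, 799, 1697 and 333 under those 6 settings, 94 with no filter, and 55 to 443 on leaving out 1 donor.

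Single values for genes and gene pairs were also followed under the alternatives other than leaving out 1 donor. Of these, 751 stayed on the same side of the threshold, 17 crossed it to pass and 10 no longer passed. Another 3 changed sign with the main or the alternative fit past the threshold. Changes of sign where neither fit passed are among the 751, such as Kcnc4, at -0.45 in the main fit and 0.50 with the large myelinated covariate. On leaving out 1 donor 672 stayed on the same side, again with some changes of sign where neither fit passed. There 9 crossed the threshold to pass and 9 no longer passed. The large myelinated and glial covariates and the fits without M5 and F7 were chosen after seeing the data.

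The edgeR and DESeq2 alternatives were not run, since the deposited unit is log2. Kcns1 has the lowest read numbers of the 9 genes, 17 to 260 per library, which limits its precision.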
